A study of Mus musculus with 6 samples.

Results

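The 41 genes described here encode the contractile apparatus of smooth muscle and the actin cytoskeleton, and were taken as a list of gene symbols. All 41 were found among the 56393 genes of the deposited table. They were divided into 13 muscle-restricted or muscle-enriched genes, 10 paralogs of these that non-muscle cells use, and 18 genes that smooth muscle and non-muscle cells share. RNA sequencing had been done on 6 samples of cultured primary mouse cells labelled vascular smooth muscle cells (VSMC). The wild-type group (WT) and the group knocked out for the paraspeckle protein gene Nono (KO) had 3 libraries each, and both were grown in DMEM with 20% fetal bovine serum and antibiotics and received no further treatment. The labels do not give the strain, sex or age of the mice, the way the knockout was made, or whether the replicates of a group were separate cultures, so p-values measure the spread between these libraries, which may be technical. The comparison asks which of these genes differ between KO and WT cells.

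Smooth muscle contracts when calcium-bound calmodulin activates myosin light chain kinase, which phosphorylates the regulatory light chains of myosin and lets the myosin heads pull on actin filaments. Myosin phosphatase reverses this step, and thin filament proteins such as calponin, caldesmon and tropomyosin modulate it. The filaments are anchored in dense bodies and in adhesion plaques at the membrane. In culture, vascular smooth muscle cells are known to lose part of this contractile program while keeping the non-muscle cytoskeleton that all migrating cells use. Many contractile genes carry CArG boxes, the binding sequence of serum response factor (SRF), near their start sites.

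Library totals were between 56529170 and 61670083 counts. Levels are in CPM, counts scaled to equal library size with TMM factors, and a value with ± is a mean and SD over the 3 libraries of a group. Nono, the targeted gene, was at 502 to 523 CPM in WT against 51.1 to 56.0 CPM in KO libraries. Apart from Smtn, and Acta2 in KO, the defining smooth muscle markers were low in the cells labelled VSMC. Of 8 markers, 7 of them among the 41 genes, 5 were higher and 2 lower in KO. These calls, at an adjusted p under 0.05, cover 87.5% of the markers, against 69.3% of all tested genes. Cnn1 was over the filter on low counts in KO libraries only and Myocd in WT libraries only, so neither could well be even between the groups. Summed, they reached 67.4 to 76.5 CPM in the WT libraries and 244.7 to 249.0 CPM in the KO libraries. Myh11 stayed under 1 CPM in every library, and Myocd, the muscle coactivator of SRF, had no count in KO. Fibroblast markers, 10 listed, summed to 992 to 1136 CPM in WT against 10699 to 11576 CPM in KO. Of the 9 tested, 7 were higher and 1 lower (88.9% called), and Tcf21 had no count in any library. Another marker, among those tested, had no count in WT and passed the filter on low counts only through KO. The part of the fibroblast markers in the results below was not tested. Of 8 endothelial markers, Tie1 and Cldn5 had no count in any library and the sum was at most 3.70 CPM. Of 8 macrophage and leukocyte markers, 4 had no count in any library, Ptprc, Adgre1, Itgam and Cd3e, and the sum was at most 10.5 CPM. The 8 epithelial and mesothelial markers summed to 77.0 to 85.0 CPM in WT libraries and 8.35 to 11.9 CPM in KO libraries. Of the 4 tested, 1 was higher and 2 lower (75.0% called), and Epcam and Krt18 had no count. Y-linked genes summed to 149.9 to 163.3 CPM in KO and at most 0.0795 CPM in WT. Y-linked expression, and with it perhaps the sex of the cells, thus divides the libraries in the same way as the genotype. The parts of sex and genotype in any difference below cannot be told apart. In bulk RNA, fewer cells of a type and less RNA per cell cannot be told apart.

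Most of the 41 genes differed between KO and WT, more of them upward. Adjusted p-values are those of the quasi-likelihood test of edgeR over all 18732 tested genes, with Benjamini-Hochberg adjustment and a threshold of 0.05. Of the 41 genes, 25 were higher in KO, 9 were lower and 7 did not pass. Over all tested genes, 35.1% were higher and 34.2% lower, or 69.3% in either direction. Many of the 41 are abundant, and abundant genes pass more often. Among tested genes with a mean of at least 10 CPM, 82.0% passed, 39.1% higher and 42.8% lower, and of the 30 listed genes at that level 19 were higher and 5 lower. The share called, 34 of 41, was near that of abundant genes. The median log2 fold change of the 41 was 0.51, against 0.031 over all tested genes. A difference of at least 2-fold was found in 13 genes upward and 4 downward, against 21.6% and 19.8% of all tested genes. The KO and WT values did not overlap in 34 of the 41, against 75.5% of all tested genes. Actg2 and Cnn1 passed the filter on low counts only through their KO libraries. Ppp1r14a was over it in all WT libraries and in 1 KO library. These 3 genes could hardly be even between the groups. Of the 38 others, 23 were higher and 8 lower, with a median log2 fold change of 0.45.

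**Figure D1:**
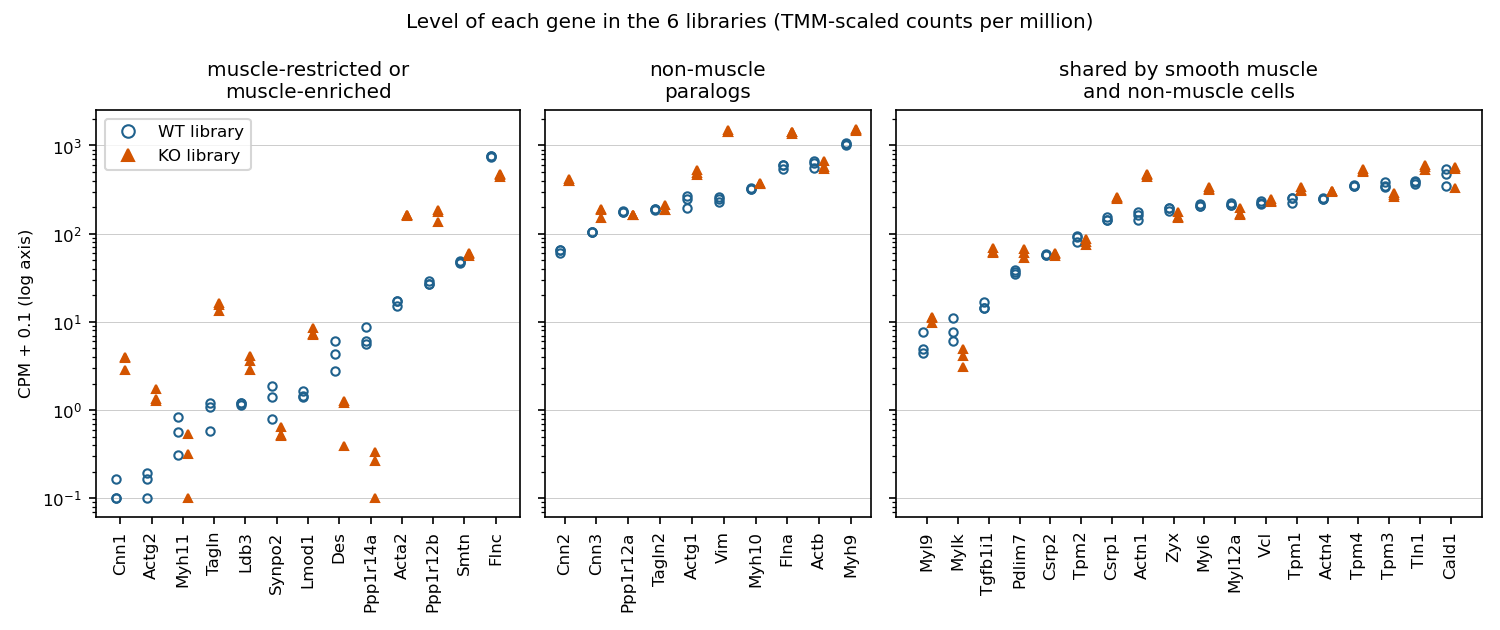
Level of each of the 41 genes in the 6 libraries, as CPM plus 0.1 on a log axis, in 3 panels by class and ordered by the WT mean. Open circles are WT libraries and triangles KO libraries. The muscle class runs from Cnn1, at 0 in 2 WT libraries, to Flnc at 739 to 757 CPM in WT, while every non-muscle paralog lies above 50 CPM.

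Counts by class are a description, and no difference between classes was tested. Of the 13 muscle genes, 8 were higher and 4 lower, with 10 of the 12 by at least 2-fold. The share called was 92.3%, against 69.3% of all tested genes and 82.0% of abundant ones. Of all tested genes, 41.4% passed with a difference of at least 2-fold. Without Actg2, Cnn1 and Ppp1r14a, 6 of 10 were higher and 3 lower, 7 of them by at least 2-fold. Of the 10 non-muscle paralogs, 7 were higher and 1 lower, 4 of them by at least 2-fold. Of the 18 shared genes, 10 were higher and 4 lower, and 3 differed by at least 2-fold. The shares called, 80.0% of the paralogs and 77.8% of the shared genes, were near the 82.0% of abundant tested genes. The median log2 fold change was 1.67 for the muscle genes (0.97 without those 3), 0.63 for the paralogs and 0.32 for the shared genes. Muscle genes were also the ones at low counts: 4 of the 13 had a WT mean under 1 CPM and 4 a KO mean under 1 CPM, and no gene of the other classes did.

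**Figure D2:**
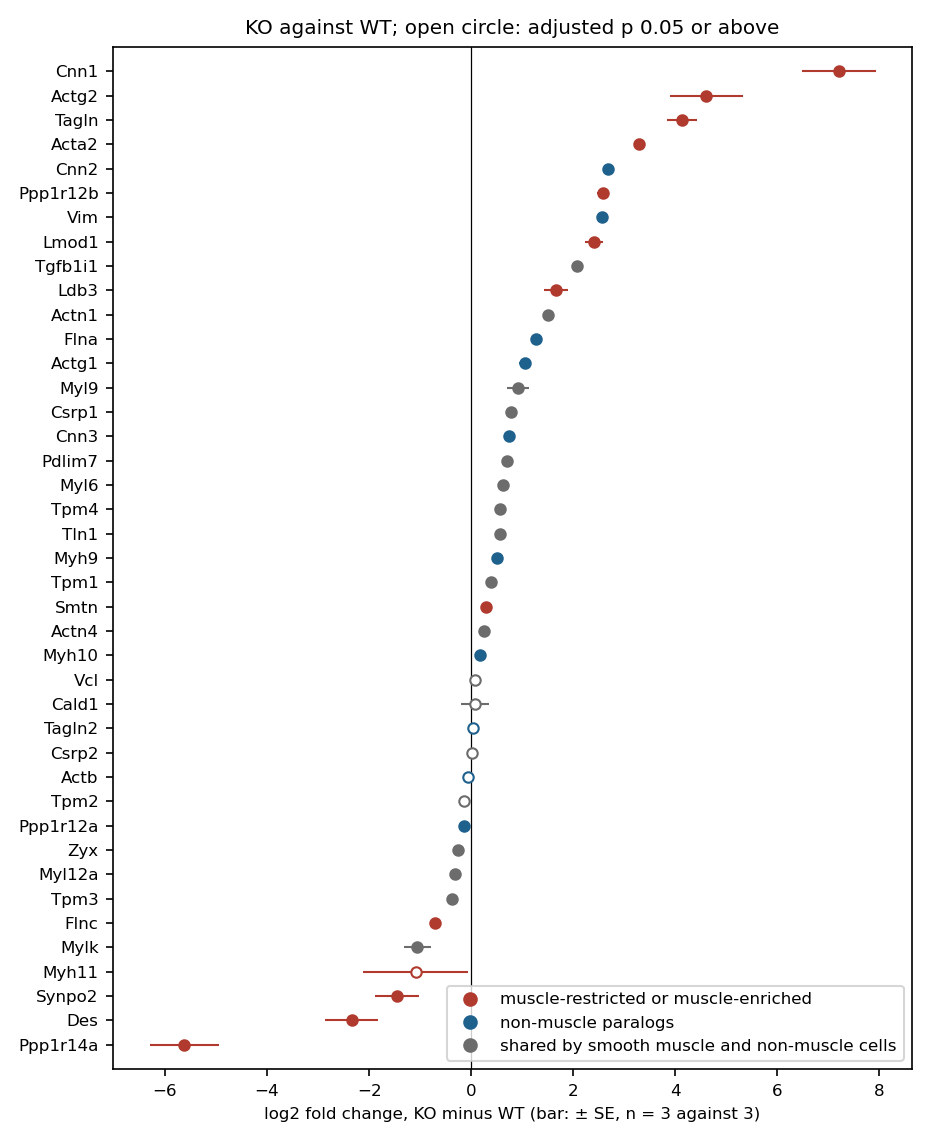
Fitted log2 fold change (KO minus WT) of each gene with its SE, n = 3 libraries a group, coloured by class. Filled circles passed an adjusted p of 0.05. The 5 genes with the largest decreases by fitted value include 4 of the muscle class, Ppp1r14a, Des, Synpo2 and Myh11, of which Myh11 is open, and the 4 largest increases are all of that class.

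Both smooth muscle actins and one cytoplasmic actin rose. Acta2, the smooth muscle alpha-actin that builds the contractile thin filament (ENSMUSG00000035783), was at 14.96, 17.1 and 17.2 CPM in the WT libraries and at 158.8, 163.6 and 161.6 CPM in the KO libraries. Every KO library was above every WT library, and the difference was 9.82-fold (log2 fold change 3.30 ± 0.07 SE, edgeR adjusted p = 6.0e-09). Actg2, the enteric smooth muscle gamma-actin (ENSMUSG00000059430), had 6, 0 and 4 counts in WT and 97, 68 and 69 in KO. The groups did not overlap, but the WT level rests on 10 counts in all (log2 fold change 4.61 ± 0.72 SE, edgeR adjusted p = 0.000511). Leaving out WT replicate 1 gave a log2 fold change of 5.30. Actg1, the cytoplasmic gamma-actin, rose 2.08-fold, from 247, 264 and 197 CPM to 459.9, 522.6 and 488.4 CPM. Actb, the cytoplasmic beta-actin, was at 668, 562 and 629 CPM in WT against 535, 666 and 569 CPM in KO. These ranges overlapped and Actb did not pass (log2 fold change -0.07 ± 0.09 SE, edgeR adjusted p = 0.532). Actin genes are close in coding sequence, so reads can be split between them and their levels are uncertain to that extent. Per length, on the deposited FPKM scale, Acta2 was at 6.64 to 7.80 FPKM in WT and 65.6 to 67.9 FPKM in KO, still under the 246 to 395 FPKM of Actb in KO.

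The upstream sequences of Acta2 and Actg1 are shown because a smooth muscle actin and its cytoplasmic paralog both rose. Their windows differ in whether they hold an exact CArG box. Sequences are the 250 bases before the start site in RefSeq (build GRCm38.p6), read 5′ to 3′ on the gene's strand. The Acta2 window (chr19:34255374-34255623, minus strand) held no exact CArG box. It held 2 matches with 1 letter changed, starting 84 and 34 bases before the start, in capitals. A changed letter does not show that SRF cannot bind there, and binding was not measured. The Actg1 window (chr11:120348496-120348745, minus strand) held an exact box starting 90 bases before the start, in capitals.
Acta2: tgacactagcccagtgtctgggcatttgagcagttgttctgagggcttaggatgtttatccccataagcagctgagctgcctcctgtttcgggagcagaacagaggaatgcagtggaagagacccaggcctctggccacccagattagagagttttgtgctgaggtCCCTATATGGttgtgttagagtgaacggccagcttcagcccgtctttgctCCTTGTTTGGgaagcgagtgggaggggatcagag
Actg1: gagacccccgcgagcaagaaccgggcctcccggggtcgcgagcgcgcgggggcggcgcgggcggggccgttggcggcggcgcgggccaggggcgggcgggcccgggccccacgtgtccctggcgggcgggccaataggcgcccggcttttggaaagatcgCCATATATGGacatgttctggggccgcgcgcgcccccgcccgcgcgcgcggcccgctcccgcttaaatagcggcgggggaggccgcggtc

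Calponins rose in all 3 paralogs. Cnn1, the smooth muscle calponin that binds actin and inhibits the myosin ATPase (ENSMUSG00000001349), had 0, 0 and 4 counts in WT and 221, 217 and 163 counts in KO. All KO libraries were above the WT libraries, at 2.77 to 3.95 CPM, a low level (log2 fold change 7.21 ± 0.72 SE, edgeR adjusted p = 3.17e-05). All 4 WT counts came from WT replicate 3. Leaving it out put the WT group at 0 and gave only a bound, at least 143-fold higher if 3 counts over the remaining WT libraries are taken as the floor. Cnn2, a non-muscle calponin of motile cells, was at 64.6, 59.9 and 64.4 CPM in WT against 399.6, 414.4 and 400.3 CPM in KO. Its groups lay far apart relative to their spread (6.43-fold, log2 fold change 2.68 ± 0.05 SE, edgeR adjusted p = 2.8e-09). Cnn3, the acidic calponin, rose 1.68-fold, from 104.8 ± 0.43 to 176 ± 20.8 CPM. Per length, Cnn2 in KO was at 138 FPKM and Cnn1 at 1.71 FPKM, so the non-muscle calponin remained far above the smooth muscle one.

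The windows of Cnn1 and Cnn2 are shown as a paralog pair that rose together and differs in the CArG box. The Cnn1 window (chr9:22099003-22099252, plus strand) held neither an exact box nor a match with 1 letter changed, which says only that these letters are not in these bases. The Cnn2 window (chr10:79988350-79988599, plus strand) held an exact box starting 56 bases before the start, in capitals.
Cnn1: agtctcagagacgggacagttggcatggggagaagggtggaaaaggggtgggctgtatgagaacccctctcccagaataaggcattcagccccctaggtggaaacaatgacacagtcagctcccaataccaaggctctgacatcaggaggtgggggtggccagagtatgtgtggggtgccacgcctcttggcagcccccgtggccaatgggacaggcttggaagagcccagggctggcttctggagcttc
Cnn2: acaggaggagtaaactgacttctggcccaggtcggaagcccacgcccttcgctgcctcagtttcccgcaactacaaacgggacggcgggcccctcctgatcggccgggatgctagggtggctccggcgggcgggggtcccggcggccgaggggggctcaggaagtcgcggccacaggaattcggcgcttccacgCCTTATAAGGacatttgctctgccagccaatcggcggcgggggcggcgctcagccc

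Of the transgelins, only the smooth muscle gene passed. Tagln, an actin-binding marker of smooth muscle also called SM22 alpha (ENSMUSG00000032085), was at 0.983, 1.117 and 0.477 CPM in WT against 15.5, 13.1 and 16.4 CPM in KO. No KO value came near the WT values (17.5-fold, log2 fold change 4.13 ± 0.29 SE, edgeR adjusted p = 4.06e-06). Its non-muscle paralog Tagln2 was at 190.3, 186.3 and 188.5 CPM in WT against 183.4, 210.2 and 186.5 CPM in KO. The ranges overlapped and Tagln2 did not pass (edgeR adjusted p = 0.583), with a sign that turned in 4 of 15 alternatives.

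Myosin heavy chains were led by the non-muscle isoforms. Myh11, the smooth muscle heavy chain and the most specific marker of the lineage (ENSMUSG00000018830), had 29, 44 and 13 counts in WT and 0, 24 and 13 counts in KO. The groups overlapped, at 0.467 ± 0.264 and 0.219 ± 0.218 CPM, and a difference was not detectable at this depth (edgeR adjusted p = 0.375). Myh9, the heavy chain of non-muscle myosin IIA, was at 1053, 1024 and 1068 CPM in WT against at 1497, 1547 and 1446 CPM in KO (1.43-fold higher, edgeR adjusted p = 5.26e-06). Myh10, the heavy chain of non-muscle myosin IIB, rose 1.13-fold, from 323 ± 4.17 to 366 ± 4.49 CPM (edgeR adjusted p = 0.00192). That call was lost with scaling by library totals (adjusted p = 0.236) and from the deposited FPKM (0.285). Acta2, Tagln and Cnn1 thus rose in libraries in which Myh11 did not pass.

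Light chains and the enzymes that act on them moved in different directions. Myl9, the regulatory light chain most used by smooth muscle, was at 7.59, 4.79 and 4.34 CPM in WT against 10.9, 9.49 and 11.2 CPM in KO, a 1.89-fold increase without overlap (edgeR adjusted p = 0.0053). Myl12a, a regulatory light chain of non-muscle myosin, fell by 0.31 ± 0.07 (SE) on the log2 scale, from 216.7 ± 7.52 to 175 ± 17.1 CPM. Its close copy Myl12b can share reads with it, and from the deposited FPKM the call was lost (adjusted p = 0.198). Myl6, the essential light chain of both smooth muscle and non-muscle myosin, rose 1.54-fold to 324 ± 15.1 CPM. Mylk, the light chain kinase that starts contraction, fell 2.08-fold, from 5.94, 10.9 and 7.57 CPM to 3.96, 4.82 and 2.95 CPM (edgeR adjusted p = 0.00726). Its gene counts do not separate the smooth muscle kinase from the longer non-muscle kinase or from telokin, which the same gene encodes.

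Myosin phosphatase genes did not move together. Ppp1r12b, a targeting subunit enriched in striated and smooth muscle (ENSMUSG00000073557), was at 26.8, 29.0 and 26.8 CPM in WT against 137, 185 and 174 CPM in KO. This was 6.01-fold higher (log2 fold change 2.59 ± 0.11 SE, edgeR adjusted p = 2.59e-07). Ppp1r12a, the widely expressed targeting subunit, was at 182.5, 178.1 and 178.3 CPM in WT against at 162, 162.7 and 163 CPM in KO. The difference was small but without overlap (1.11-fold lower, edgeR adjusted p = 0.0103), and without WT replicate 1 the adjusted p was 0.0503. Ppp1r14a, the inhibitor of myosin phosphatase known as CPI-17 (ENSMUSG00000037166), went the other way. It had 375, 514 and 346 counts in WT and 14, 9 and 0 counts in KO, or 6.67 ± 1.66 CPM against 0.134 ± 0.122 CPM. The fitted decrease was 49.2-fold (log2 fold change -5.62 ± 0.68 SE, edgeR adjusted p = 0.000209), 81.7-fold without KO replicate 1 and 32.7-fold without KO replicate 3. Ppp1r12b and Ppp1r14a, both enriched in muscle, thus moved in opposite directions. Ppp1r14a was over the filter on low counts in only 1 KO library, so it could hardly be even between the groups.

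The window of Myl9 is shown because it held an exact CArG box beside a gene that rose less than 2-fold. The box started 161 bases before the start (chr2:156775214-156775463, plus strand) and is in capitals. A match with 1 letter changed, starting 99 bases before the start, is left in lower case.
Myl9: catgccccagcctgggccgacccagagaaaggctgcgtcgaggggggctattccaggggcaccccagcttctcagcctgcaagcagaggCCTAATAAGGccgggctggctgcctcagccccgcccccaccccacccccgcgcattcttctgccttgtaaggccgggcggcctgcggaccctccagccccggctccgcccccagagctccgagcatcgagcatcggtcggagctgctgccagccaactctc

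Other thin filament genes changed by less than 1.5-fold or did not pass, apart from Lmod1. Tropomyosins, the coiled coils that lie along actin, differed by gene. Tpm4 rose from 347, 343 and 356 CPM to 504.7, 540.7 and 511.6 CPM and Tpm1 from 250.5, 225.5 and 253.8 CPM to 304.9, 339.5 and 313.6 CPM. Tpm3 fell from 387, 352 and 337 CPM to 273, 289 and 264 CPM. These 3 passed with fitted folds of 1.49, 1.31 and 1.302 and did not overlap between groups. Tpm2, a tropomyosin of muscle thin filaments, was at 89.4 ± 7.56 CPM in WT against 81.0 ± 6.203 CPM in KO (edgeR adjusted p = 0.155, and 0.0197 and lower with scaling by library totals). Smooth muscle and non-muscle tropomyosins arise by splicing from the same genes, so gene counts do not tell them apart. Cald1, caldesmon, was at 343, 472 and 541 CPM in WT against 329, 543 and 567 CPM in KO. The lowest library of each group was replicate 1, and the spread within the groups was wider than the difference between them (edgeR adjusted p = 0.80). Smtn, smoothelin, a marker of contractile smooth muscle, was at 46.8, 49.4 and 47.3 CPM in WT against 59.6, 55.4 and 59.5 CPM in KO (1.22-fold higher, edgeR adjusted p = 0.00302). Its call was lost with scaling by library totals (adjusted p = 0.0571) and from the deposited FPKM (0.227). Lmod1, leiomodin, which nucleates actin filaments in smooth muscle, rose 5.32-fold, from 1.36, 1.57 and 1.304 CPM to 7.14, 7.06 and 8.35 CPM (edgeR adjusted p = 3.66e-06).

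Intermediate filament genes moved in opposite directions. Des, desmin, the muscle intermediate filament protein, was at 2.69, 5.94 and 4.25 CPM in WT against 1.09, 1.16 and 0.288 CPM in KO. It was 5.06-fold lower without overlap (log2 fold change -2.34 ± 0.52 SE, edgeR adjusted p = 0.0044). Vim, vimentin, its mesenchymal counterpart, was at 247, 227 and 260.3 CPM in WT against at 1429, 1424 and 1485 CPM in KO. The groups lay far apart at a 5.91-fold increase (log2 fold change 2.56 ± 0.06 SE, edgeR adjusted p = 6.76e-09). Per length, Vim in KO, at 571 ± 11.4 FPKM, was the highest of the 41 genes.

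Filamins and the actin cross-linkers were abundant in both groups. Flna, the widely expressed filamin that ties actin filaments into networks, was at 604, 541 and 599 CPM in WT against 1435, 1414 and 1359 CPM in KO, a 2.41-fold increase (edgeR adjusted p = 1.24e-07). Flnc, the muscle filamin of the sarcomeric Z-disc (ENSMUSG00000068699), fell 1.64-fold, from 751, 757 and 739 CPM to 469, 457 and 441 CPM (edgeR adjusted p = 5.91e-07). Per length, Flnc went from 76.0 to 42.4 FPKM and Flna from 106 to 245 FPKM, so Flna was the higher of the pair in both groups. Actn1, an alpha-actinin of stress fibres and focal adhesions, rose 2.83-fold, from 178, 145 and 162 CPM to 473, 460.5 and 439 CPM. Actn4, the other non-muscle alpha-actinin, rose 1.19-fold, from 251.8 ± 3.04 to 299.7 ± 4.29 CPM. Synpo2, a synaptopodin that binds actin and filamin at Z-discs and dense bodies, fell from 0.697, 1.77 and 1.304 CPM to 0.409, 0.418 and 0.543 CPM. The 2.74-fold decrease passed (edgeR adjusted p = 0.0145), but not without WT replicate 2 (0.061) or from the deposited FPKM (0.704). On the FPKM scale KO replicate 2 was at 0.347 FPKM, above all WT libraries, while its CPM was below all of them.

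Of 8 adhesion and LIM domain genes among the 41, Tln1, Tgfb1i1, Csrp1, Pdlim7 and Ldb3 rose, Zyx fell, and Csrp2 and Vcl did not pass. Tln1, talin, which links integrins to actin, was at 370, 394 and 386 CPM in WT against 573, 596 and 529 CPM in KO (1.48-fold higher, edgeR adjusted p = 2.02e-05). Tgfb1i1, a paxillin relative of smooth muscle adhesions, rose 4.23-fold, from 14.3, 16.5 and 14.2 CPM to 60.5, 67.9 and 62.1 CPM. Csrp1, a LIM protein that binds alpha-actinin and zyxin, rose 1.71-fold, from 147 ± 5.22 to 252 ± 6.84 CPM, whereas its paralog Csrp2 was at 57.8 ± 0.832 and 58.3 ± 2.32 CPM and did not pass (edgeR adjusted p = 0.882). Pdlim7 rose 1.64-fold, from 36.6 ± 1.61 to 60.0 ± 6.81 CPM. Ldb3, a PDZ and LIM protein of striated muscle Z-discs, rose 3.17-fold from a low level, 1.03, 1.10 and 1.10 CPM, to 2.73, 3.49 and 4.04 CPM. Zyx, zyxin, was lower, at 195.5, 178.9 and 196.4 CPM in WT against 152.9, 176.3 and 150.6 CPM in KO. Its 1.19-fold decrease (edgeR adjusted p = 0.013) did not pass without WT replicate 1 (0.0518) or without WT replicate 3 (0.0565). Vcl, vinculin, which strengthens the talin link to actin, was at 222, 214 and 235 CPM in WT against 236, 249 and 228 CPM in KO, with overlap (edgeR adjusted p = 0.179).

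The Vcl window (chr14:20929148-20929397, plus strand) is shown as an exact CArG box, in capitals and starting 227 bases before the start, beside a gene that did not pass the test.
Vcl: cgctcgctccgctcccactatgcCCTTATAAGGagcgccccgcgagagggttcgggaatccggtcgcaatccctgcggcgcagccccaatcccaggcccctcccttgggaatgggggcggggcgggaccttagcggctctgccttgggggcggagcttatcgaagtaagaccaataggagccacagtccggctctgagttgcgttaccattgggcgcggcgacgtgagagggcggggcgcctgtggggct

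Promoter windows of 250 bases before to 50 after the start were found in the RefSeq table for 35 of the 41 genes, 42 windows in all. Tagln, Myh11, Actg2, Actb, Tgfb1i1 and Csrp2 had no entry. An exact CArG box, which reads the same on both strands, was in 7 of the 42 windows (16.7%), against 1.63% of the 32851 windows of the table. These windows belong to Actg1, Cnn2, Ldb3, Myl6, Myl9 and Vcl. A match with 1 letter changed was in 10 windows (23.8%), among them Acta2, Lmod1, Flna and Flnc, against 19.9% of all windows. The motif CATTCC, read on both strands and known as the core of the binding sequence of TEAD factors, was in 15 windows (35.7%), against 14.7%. The letters TATAAA, read on both strands, were in 4 windows (9.52%), against 13.6%. Some windows belong to the same gene and overlap, and a match is no measure of binding.

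The balance within each gene family was compared inside each library, where no scaling enters. The share of a family's counts that came from its muscle member was computed for 9 families. For filamins this is Flnc, a gene of striated muscle too, and for the targeting subunits Ppp1r12b, enriched in both kinds of muscle. The other targeting subunit, Ppp1r12a, is widely expressed and not confined to non-muscle cells. That share thus does not set muscle strictly against non-muscle. For light chains Myl9 was taken, and for tropomyosins Tpm1 and Tpm2. These are classed above as shared by smooth muscle and non-muscle cells, so their shares are not strictly muscle shares. With 3 libraries against 3, an exact two-sided permutation test cannot go below p = 0.10. In 7 of the 9 families the KO and WT shares did not overlap and the test gave that value (0.129 after adjustment over the 9). Among single tested genes, 75.5% did not overlap between the groups. The calponin share rests on Cnn1, with 0, 0 and 4 counts in WT. Myosin heavy chain and tropomyosin shares overlapped, with an exact permutation p = 0.20 each. Shares of counts weight long genes more, so shares of the deposited FPKM are given beside them.

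The muscle share was higher in all KO libraries than in all WT libraries in 5 of the families. Acta2 and Actg2 made up 1.62%, 2.03% and 2.05% of actin counts in the WT libraries and 13.9%, 12.2% and 13.3% in the KO libraries. By FPKM the actin shares averaged 1.67% and 11.3%. Tagln went from 0.454 ± 0.179% to 7.25 ± 1.19% of transgelin counts. Cnn1 went from 0.0125 ± 0.0216% to 0.599 ± 0.117% of calponin counts, so that Cnn2 and Cnn3 kept over 99% of them in every library. Ppp1r12b went from 12.8%, 14.0% and 13.05% of the counts of both targeting subunits to 45.9%, 53.2% and 51.6%. In KO it thus reached a level near that of Ppp1r12a, and per length 32.4 ± 3.31 FPKM against 38.4 ± 0.327 FPKM. Myl9 went from 2.51 ± 0.808% to 5.70 ± 0.515% of the counts of Myl9 and Myl12a.

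In the other families the muscle share was lower in all KO libraries or overlapped. Flnc was the larger part of the Flna and Flnc counts in WT, with 55.4%, 58.3% and 55.2%, and the smaller part in KO, with 24.6%, 24.4% and 24.5%. By FPKM its mean share went from 41.7% to 14.8%. Des went from 1.75 ± 0.747% to 0.0591 ± 0.0345% of the counts of Des and Vim. Myh11 was at most 0.0544% of the heavy chain counts in any library. Tpm1 and Tpm2 together held 32.0 ± 1.32% of tropomyosin counts in WT and 33.5 ± 0.645% in KO; by FPKM the shares were 35.4 ± 1.17% and 37.5 ± 0.52% without overlap.

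**Figure D3:**
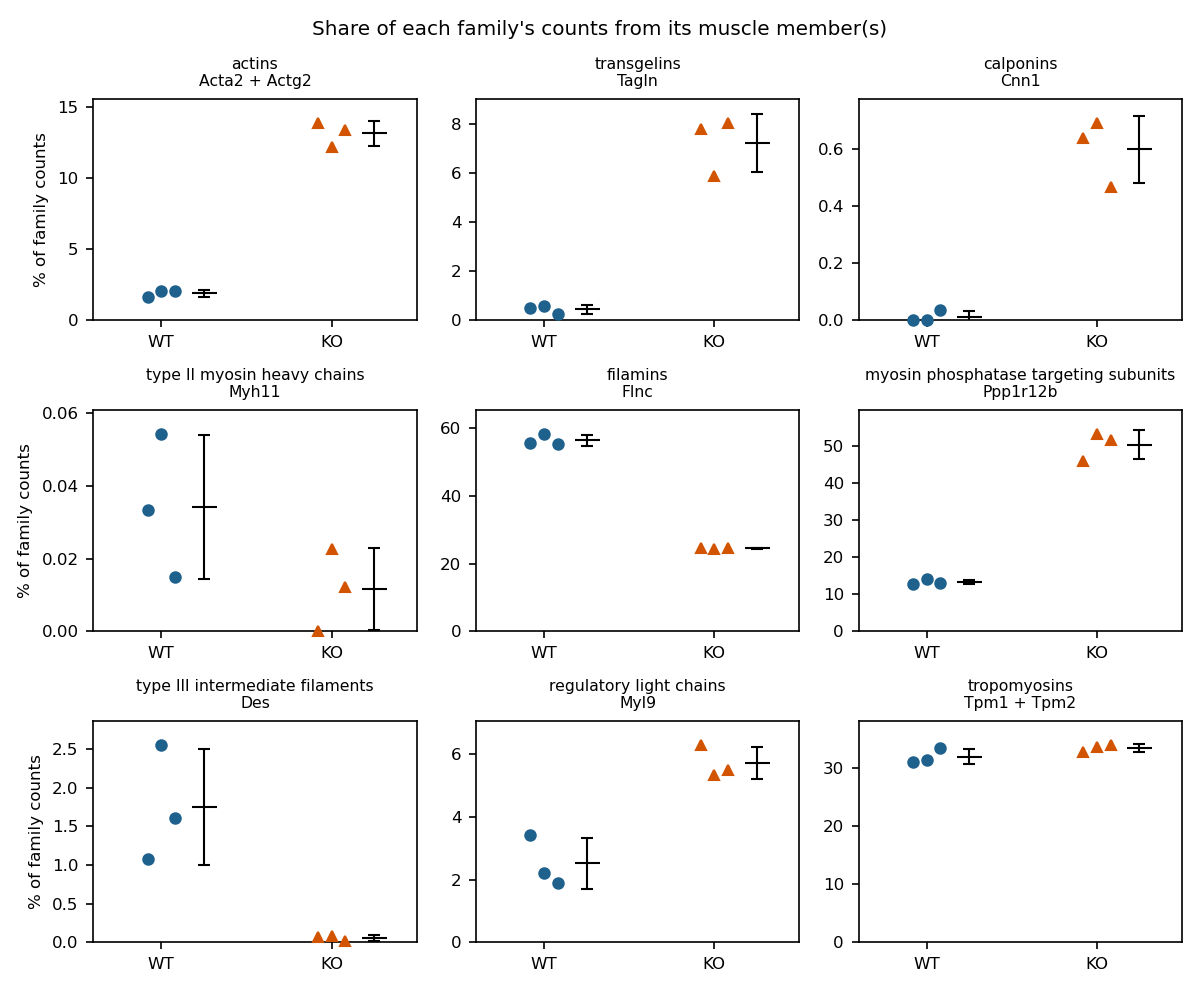
Percent of each family's counts that came from its muscle member or members, 1 point a library, with mean ± SD (n = 3) beside the points and every axis starting at 0. For light chains (Myl9) and tropomyosins (Tpm1 and Tpm2) these are genes of the shared class. Actin, transgelin, calponin, targeting subunit and light chain shares are higher in all KO libraries, filamin and desmin shares are lower in all KO libraries, and the myosin heavy chain and tropomyosin shares overlap.

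Other genes of the same machinery were read from 3 lists. Of 32 genes of actin filament assembly and turnover, 20 were higher and 7 lower (84.4% called, against 69.3% of all tested genes and 82.0% of abundant ones), with a median log2 fold change of 0.39. Diaph3, a formin, fell from 136 ± 1.05 to 28.5 ± 1.71 CPM, and Capza2, a capping protein subunit, from 410.1 ± 6.77 to 185 ± 8.26 CPM. Gsn, gelsolin, which severs filaments, rose from 164 ± 10.7 to 584 ± 10.4 CPM. Actr3, a subunit of the branching complex, was at 200.4 ± 41.6 and 212 ± 40.96 CPM and Diaph1, another formin, at 93.2 and 88.5 CPM, and neither passed.

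Of 24 focal adhesion and dense plaque genes, 23 were tested, 12 higher and 6 lower (78.3% called, between the same 69.3% and 82.0%), with a median log2 fold change of 0.37. Pdlim2 rose from 19.2 ± 1.95 to 112 ± 3.76 CPM and Sorbs2, an adaptor of actin-based adhesions, from 8.88 ± 0.484 to 45.6 ± 1.503 CPM. Fhl1, a LIM protein abundant in muscle, fell from 35.5 ± 6.08 to 0.361 ± 0.121 CPM. Pxn, paxillin, at 103 and 94.8 CPM, and Fermt2, a kindlin, at 118 and 119 CPM, did not pass.

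Of 20 other genes enriched in smooth muscle or mural cells, 14 were tested, 5 higher and 7 lower, with a median log2 fold change of -0.76. The share called was 85.7%, against 69.3% of all tested genes (35.1% higher and 34.2% lower). Of the 20, 3 had no count in WT and 2 had none in KO. Any of these that were tested, among them Sncg, passed the filter on low counts only through the other group. Such genes could hardly be even between the groups, and the share called includes them. Rgs5, a regulator of G protein signalling, rose from 2.37 ± 0.207 to 46.2 ± 2.34 CPM and Mustn1 from 0.247 ± 0.106 to 11.7 ± 1.06 CPM. Mcam, an adhesion molecule of mural and endothelial cells, fell from 49.9 ± 5.81 to 2.34 ± 0.127 CPM. Aoc3, at 1.37 and 0.983 CPM, and Nrip2, at 2.10 and 1.02 CPM, did not pass. Kcnmb1 and Itga8, both enriched in differentiated smooth muscle, had no count in WT and at most 0.0909 CPM in any KO library. Pln, the phospholamban gene, had none in KO.

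**Figure D4:**
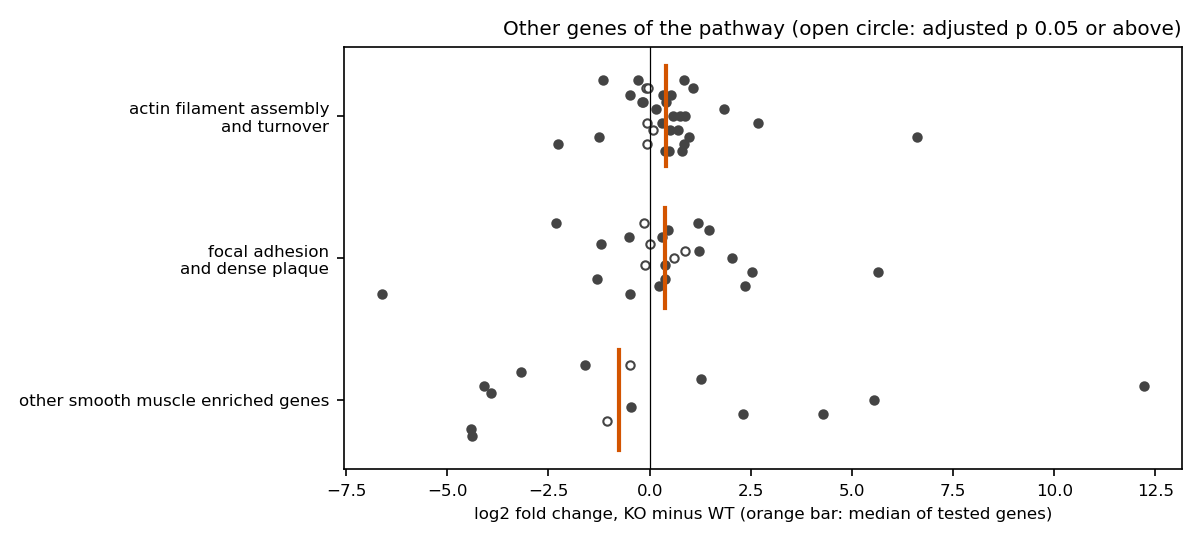
Fitted log2 fold changes (KO minus WT) of the tested genes of 3 further lists, with the median of each list as a bar and open circles for genes that did not pass; the vertical offset has no meaning. The point farthest to the right, Sncg, has no WT count, so its position rests on the fit.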

How the data were processed

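RNA sequencing of 6 samples, 3 WT and 3 KO by their titles, was read from 1 deposited table with whole-number counts and FPKM for every Ensembl gene, per the file headers. The submitters' processing notes name CASAVA 1.8, HISAT2, SAMtools 1.3.1, edgeR and build GRCm39. How reads were assigned to genes, and whether by strand, is not given in the sources used here. Overlapping genes may share reads. The authors computed the deposited FPKM.

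Symbols came from GENCODE M21 (55394 of 56393 genes, 98.2%). After filterByExpr (18732 genes kept) and TMM scaling, KO was set against WT over all libraries by the quasi-likelihood test of edgeR 4.0.16 (R 4.3.3) with robust estimation. SEs are the absolute log2 fold change divided by the square root of the F statistic. Alternatives were DESeq2 1.42.0, limma-voom and limma on log2(FPKM + 0.1 or 1) (limma 3.58.1), other scaling and filters, no robust estimation, a replicate block and leaving out each library. Replicates were not duplicates of each other: their counts differed beyond sampling noise, with chi-square values of 22.6 to 34.8 times the degrees of freedom. The genes, classes, lists and tests were chosen with earlier results of these data known. All 41 genes are described, and from each further list the 3 genes with the smallest adjusted p and up to 2 that did not pass. Kcnmb1, Itga8, Pln and Sncg were named after their values were seen. The results of 1 further list are not reported here. Floors cover counting error only.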

Additional observations from a re-analysis of the deposited data

How the results depend on the processing

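Over 15 alternatives, between 30 and 34 of the 41 genes passed, 23 to 25 higher and 7 to 10 lower. Of 613 values for single genes, 580 kept direction and call, 14 lost the call, 1 gained it and 18 changed sign. Those 18 concern 4 genes that passed in no alternative. With scaling by library totals, which moves the median log2 fold change of all tested genes from 0.031 to -0.099, the log2 fold changes were -0.091 for Tagln2, -0.044 for Cald1, -0.044 for Vcl and -0.12 for Csrp2. From log2(FPKM + 0.1) they were -0.090, -0.12, -0.10 and -0.0096, and from log2(FPKM + 1) -0.089, -0.12, -0.098 and -0.0094. Csrp2 was at -0.0038 without a filter on low counts. When 1 library was left out, Tagln2 ranged from -0.022 to 0.074, Cald1 from -0.074 to 0.29 and Csrp2 from -0.011 to 0.041. The cause was not tested. Lower calls among the 10 non-muscle paralogs were 0 to 1 when 1 library was left out, 0 without WT replicate 1, where Ppp1r12a missed the threshold. Under the replicate block 12233 of 18732 genes passed, against 12980, and 34 of the 41 genes, 25 higher and 9 lower. Same-numbered libraries did not deviate together over the tested genes (correlations of -0.0237, 0.018 and -0.00904). With 3 libraries a group, this cannot settle whether the numbers pair them. Genes under 1 CPM rest on few counts.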

Other observations

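Striated muscle genes, only some of them paralogs of the described genes, were low or had no count, apart from 1 troponin. Of 32 listed, 15 were tested, 5 higher and 5 lower (66.7% called, near the 69.3% of all tested genes), and their sum was 25.8 to 33.9 CPM in the WT libraries and 20.4 to 26.4 CPM in KO. The list held 9 genes with no count in any library, among them the cardiac actin gene Actc1, the skeletal heavy chains Myh1, Myh2 and Myh4, the alpha-actinin gene Actn2 and the myogenic factors Myog and Myod1. Tnnt2, cardiac troponin T, had the highest WT mean of the list and was at 20.9, 15.04 and 20.4 CPM in WT against 1.67, 3.87 and 2.29 CPM in KO. Tnni3, cardiac troponin I, went the other way, from 0.761, 0.534 and 0.747 CPM to 4.67, 5.76 and 5.19 CPM, and Actn3, a skeletal alpha-actinin, from 0.192 ± 0.167 to 2.34 ± 0.300 CPM. All 3 passed (edgeR adjusted p = 9.44e-05, 7.17e-06 and 0.000507).

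Single libraries stood apart in a few genes of the same machinery. Ppp1cb, the catalytic subunit of myosin phosphatase, was at 209, 197 and 195 CPM in WT and at 192, 186 and 74.8 CPM in KO, with KO replicate 3 far below the others (edgeR adjusted p = 0.376). Parva, a parvin of focal adhesions, was at 74.5, 77.0 and 70.8 CPM in WT and at 228, 91.9 and 86.5 CPM in KO, with KO replicate 1 far above (edgeR adjusted p = 0.126). These genes were chosen after their values were seen.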
